A study of Mus musculus with 24 samples.

Results

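The semaphorin, plexin, Slit, Robo, netrin and Unc5 genes measured here were 43 of the 22282 genes in the libraries, taken by their symbols: 20 semaphorins, 9 plexins, 3 Slits with 4 Robos, and 3 netrins with 4 Unc5 receptors. They encode guidance cues and their receptors, which were first known for steering growing axons and which also direct sprouting vessels. Secreted class 3 semaphorins bind neuropilins that signal through plexins, most membrane-bound semaphorins bind plexins directly, Slits bind Robos, and netrins bind Dcc, neogenin and the Unc5 receptors. In endothelium, Plxnd1 is the receptor of Sema3e and restrains sprouting, Robo4 stabilizes vessels, and Unc5b is known from tip cells.

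The study converted non-vascular mouse cells to endothelial-like cells and profiled 24 RNA-seq libraries, 3 in each of 8 groups, all of C57BL/6J genotype. MACs are amniotic cells of midgestation embryos, E11.5 to E13.5, cultured from pooled embryos of a litter of mixed sex. RACVECs are MACs that carry lentiviral Etv2, Erg and Fli1, 3 Ets transcription factors driven by the PGK promoter. They were converted in endothelial medium with VEGF-A and an inhibitor of transforming growth factor-β signalling. Akt-MACs are MACs with a lentiviral myristoylated Akt, which is constitutively active, and no Ets factor, and Akt-RACVECs carry the Ets factors and this Akt. Sox17-RACVECs are RACVECs infected with a Sox17 lentivirus and selected with puromycin, and the study names no myristoylated Akt for them. Akt-LECs and Akt-liver ECs are lung and liver endothelial cells sorted on CD31, cultured with myristoylated Akt and purified again by VEcad and CD31. LSECs are liver endothelial cells sorted directly from mice after intravital staining with anti-VEcad and isolectin, so that they were neither cultured nor transduced. The study describes Akt-LECs and LSECs as adult. Values are in FPKM, which counts fragments relative to transcript length and to the size of the library, and are given for libraries 1, 2 and 3 of a group in this order.

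The transduced genes and cell type markers were read before the comparisons. Etv2 had an FPKM of 859.9, 301 and 659 in RACVECs, 127, 572 and 289 in Akt-RACVECs and 458, 0 and 378 in Sox17-RACVECs, and it was listed at 0 in the other 15 libraries. The library labelled Sox17-RACVEC 2 therefore lacked Etv2, and its Erg of 387 stood against 4.49 and 0 in the other two. Erg was 3.91, 13.8 and 0.9 in RACVECs and 395, 1002 and 418 in Akt-RACVECs, and both were transduced with it. Sox17 was 5.09, 40.1 and 200.1 in Sox17-RACVECs and 12.01, 83.5 and 82.2 in Akt-RACVECs, which received none, and 0 in all RACVECs. Akt1 was 884, 1323 and 916 in Sox17-RACVECs and 1280.5, 872 and 920 in Akt-RACVECs, against 607, 694 and 644 in RACVECs. It was 892, 559 and 656 in Akt-liver ECs, which carry myristoylated Akt, and 692, 551 and 666 in MACs. The Akt1 level therefore did not separate all groups labelled with Akt from the others, and the reason was not tested. The 6 macrophage markers found (Ptprc, Adgre1, Csf1r, C1qa, C1qb and Lyz2) summed to 868, 9683 and 30787 in Akt-MACs and to 8602 to 14209.7 in LSECs, against 0.79 to 14.7 in MACs. Akt-LEC 1 and Akt-liver EC 1 also held macrophage markers, at 1598 and 1095, and mesenchymal markers, at 4170 and 2636, where libraries 2 and 3 of these groups reached at most 18.6 and 439. The 9 mesenchymal markers summed to 3233 to 8852 in MACs, 2988 to 6552 in RACVECs and 6.04 to 407 in Akt-RACVECs, and the 9 endothelial markers to 53.2 to 95.4, 2171 to 4479 and 13784 to 22161. In Sox17-RACVECs, mesenchymal markers summed to 1289, 11.85 and 2383 and endothelial markers to 6134, 17868 and 5553. Sinusoidal endothelial markers summed to 43.7, 1371 and 24.7 there, so Sox17-RACVEC 2 also stood apart in these markers. Neuronal markers summed to at most 1061, in MAC 3, epithelial markers to at most 1549, in Akt-liver EC 1, and mesothelial markers to at most 2756, in Akt-MAC 3. RACVEC 3 stood apart from the other two RACVEC libraries in mesothelial markers, 0, 0 and 2026, and in epithelial markers, 286, 131 and 1170.3. Hepatocyte, red blood cell and lymphocyte markers were high in LSECs alone among the 8 groups, at 1966 to 11080.3, 10274 to 10897 and 84.8 to 102, beside sinusoidal endothelial markers of 41696 to 52619.

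Upstream sequences are shown of Robo4 and Sema6b, which rose in both conversion comparisons below, and of Robo3 and Plxnd1, receptors that rose in the second of them, because the transduced factors bind a short DNA motif. RefSeq promoters (build GRCm38.p6) were found for 35 of the 43 genes, at 48 starts, and the 250 bases before each start were searched on both strands for the forms AGGAAG and AGGAAA and the forms CGGAAG and CGGAAA of the Ets motif, counting overlapping matches. The sequences run 5′ to 3′ on the strand of the gene, and capitals mark a match on either strand. Sema6b has 2 starts, and the downstream one comes first. The windows are those of Robo4 (chr9:37401722-37401971, + strand), Robo3 (chr9:37433176-37433425, - strand), Plxnd1 (chr6:115995006-115995255, - strand) and Sema6b (chr17:56133853-56134102 and chr17:56140344-56140593, - strand).
Robo4: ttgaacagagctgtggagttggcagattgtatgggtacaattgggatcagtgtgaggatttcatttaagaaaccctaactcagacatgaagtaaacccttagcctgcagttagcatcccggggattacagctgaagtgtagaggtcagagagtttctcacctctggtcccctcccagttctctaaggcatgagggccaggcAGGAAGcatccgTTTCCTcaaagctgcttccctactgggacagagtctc
Robo3: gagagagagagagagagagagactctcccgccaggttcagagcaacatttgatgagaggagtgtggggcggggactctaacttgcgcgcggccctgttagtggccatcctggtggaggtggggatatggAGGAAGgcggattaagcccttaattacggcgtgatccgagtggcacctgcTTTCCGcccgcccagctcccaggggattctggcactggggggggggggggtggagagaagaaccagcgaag
Plxnd1: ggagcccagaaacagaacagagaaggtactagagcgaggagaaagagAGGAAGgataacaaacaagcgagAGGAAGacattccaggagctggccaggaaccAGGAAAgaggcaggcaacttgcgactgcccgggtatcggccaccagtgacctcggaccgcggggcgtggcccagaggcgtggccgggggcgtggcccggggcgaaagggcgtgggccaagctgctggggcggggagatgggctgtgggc
Sema6b, downstream start: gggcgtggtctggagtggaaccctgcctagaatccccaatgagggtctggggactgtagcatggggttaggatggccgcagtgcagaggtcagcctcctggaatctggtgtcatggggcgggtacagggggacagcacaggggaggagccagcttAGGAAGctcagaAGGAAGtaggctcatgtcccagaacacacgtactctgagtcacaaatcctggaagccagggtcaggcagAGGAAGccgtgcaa
Sema6b, upstream start: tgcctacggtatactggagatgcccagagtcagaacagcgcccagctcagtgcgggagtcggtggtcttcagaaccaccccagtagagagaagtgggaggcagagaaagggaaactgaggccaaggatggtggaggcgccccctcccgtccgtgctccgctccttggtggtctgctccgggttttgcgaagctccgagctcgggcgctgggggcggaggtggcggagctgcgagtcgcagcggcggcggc
Robo4 and Robo3 held 2 matches each, Plxnd1 held 3, and Sema6b held 3 at its downstream start and 0 at its upstream one. Of all 32851 promoters, 57.2% held at least 1 match, 24.2% at least 2 and 8.21% at least 3, and of the 48 starts of these genes 31 held at least 1, a share of 64.6%. The core letters of the Sox motif, ACAAT, had 2 matches before Robo4, and occurred in 27.7% of all promoters and in 22.9% of the 48. Slit3, whose level was near 0 in Akt-RACVECs and Sox17-RACVECs, had 0 matches to either motif. Most other genes that fell in the second comparison below held Ets matches. Plxnc1 held 2, and Plxna3, Plxnb1 and Ntn3 held 1 each. Robo2 held 2, 1 and 0 at its starts, Sema4d 0, 1 and 1, and Sema4a 1 at each start. Unc5c held 0, and Sema3b was without a promoter here. The matches therefore did not separate genes that rose from genes that fell. A match is only a match of letters, and binding was not measured here.

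All 43 genes had a value above 0 in at least 1 library, and 29 to 42 of them did in any 1 library. A mean FPKM of at least 1 over the 24 libraries was required for a test, which 40 passed; Sema5b, Slit1 and Unc5d, with means of 0.580, 0.413 and 0.829, were not tested. A moderated F test with limma on log2(FPKM + 1) called a difference between the 8 groups for 29 of the 40 genes (adjusted p below 0.05), where it called 54% of all 14964 genes tested. Robo4 had the smallest adjusted p of the 29, 1.17e-10, followed by Plxnc1 with 1.17e-06 and Slit3 with 4.32e-05. The 11 without a call were Sema3c, Sema3d, Sema3f, Sema3g, Sema4c, Sema4f, Sema4g, Sema6d, Plxna4, Plxnb3 and Robo1, and Sema3c, a secreted ligand, shows their spread within a group, with 459, 34.6 and 1513 in RACVECs. RACVEC 3, where it was highest, was also the RACVEC library with mesothelial and epithelial markers, and their part was not tested.

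**Figure D1:**
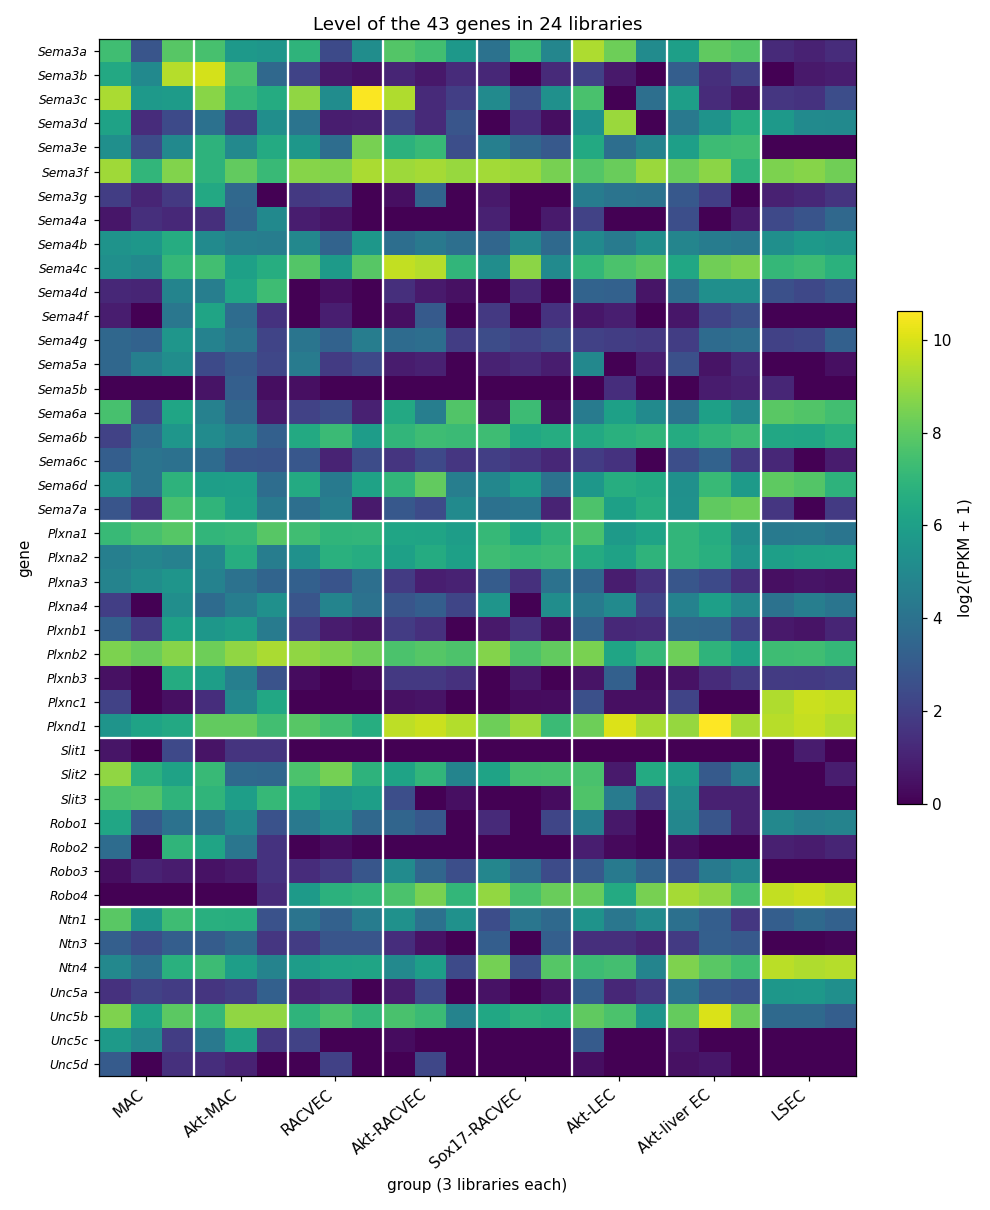
Level of each of the 43 genes (rows) in each of the 24 libraries (columns, 3 per group in the order 1, 2, 3), as log2(FPKM + 1) on a colour scale from 0 (dark) upward, with white lines between families and groups. Robo4 is at 0 in the 3 MAC libraries and high in every converted and endothelial library, Plxnc1 is high in the 3 LSEC libraries, and Sema3f is high in all 24.

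The first comparison asked what changed in these genes when MACs were converted by Etv2, Erg and Fli1. Amniotic cells were kept in AmnioMAX before conversion, and the study does not give the medium of the profiled MACs separately. Medium, VEGF-A and time in culture can therefore not be told apart from the Ets factors. In RACVECs, 2 genes rose against MACs, the receptor Robo4 and the membrane-bound ligand Sema6b, and 1 fell, the secreted ligand Sema3b. These were 5% and 2.5% of the 40 genes, where limma called 1.36% of all genes higher and 1.35% lower. A call required an adjusted p below 0.05 together with an absolute log2 fold change above 1. By the unadjusted p at 0.05, with that same size of change, 4 genes were higher and 10 lower, where 5.45% and 7.15% of all genes were. The median log2 fold change of the 40 genes was -0.55, against 0 over all genes tested. In bulk RNA, fewer cells of a type and less RNA per cell cannot be told apart.

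Robo4, which lies on chromosome 9 from 37209482 to 37221608 of mm9 on the + strand, was listed at 0 in all MACs and had an FPKM of 53.6, 112 and 125 in RACVECs. Every RACVEC library was above every MAC library (limma, adjusted p = 1.29e-06), and no fold change is given against a group at 0. No omission of a single library ended this call, with an adjusted p of at most 2.81e-05. Robo3, the neighbouring receptor gene on chromosome 9 from 37223254 to 37240760, runs on the - strand toward Robo4, and no exon of either overlaps another gene's. Its FPKM was 0.33, 1.01 and 0.73 in MACs and 1.58, 2.39 and 6.26 in RACVECs, which was not called (log2 fold change 1.26 ± 0.69 SE, adjusted p = 0.328). Robo2 had 12.3, 0 and 124 in MACs and 0, 0.23 and 0 in RACVECs, so that the groups overlapped through the MAC library at 0 (adjusted p = 0.112). Robo1, a Slit receptor of axons, had 77.4, 7.02 and 15.2 in MACs and 18.4, 33.7 and 11.1 in RACVECs and overlapped as well. Its log2 fold change of -0.11 had a 95% interval of -2.63 to 2.41.

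Sema6b, a transmembrane ligand of class A plexins whose gene lies on chromosome 17 from 56262508 to 56279766, reached an FPKM of 3.24, 12.4 and 47.5 in MACs and 86.8, 152 and 58.2 in RACVECs. The RACVECs were all higher, by a log2 fold change of 2.72 ± 0.61 (SE, adjusted p = 0.0183). The call was lost without MAC 1 or without RACVEC 2, with an adjusted p of up to 0.105. These levels of Sema6b are sums over 2 transcripts. The first had 1.69, 7.5 and 16.3 in MACs and 52.6, 145 and 36.1 in RACVECs, without overlap. The second overlapped, with 1.55, 4.91 and 31.2 against 34.2, 7.09 and 22.1. Which of the starts shown above belongs to which transcript was not determined here. Sema3b, a secreted ligand on chromosome 9 from 107500005 to 107511560, had 84.99, 31.5 and 691 in MACs and 3.45, 0.62 and 0.41 in RACVECs. All RACVECs were lower, by a log2 fold change of -5.85 ± 1.19 (SE, adjusted p = 0.00994), although the MAC libraries themselves spread over a wide range. MAC 3, the library highest in Sema3b, was also highest in the 6 neuronal markers, which summed to 159.6, 81.6 and 1061, and their part was not tested. This call was lost without MAC 3 or without RACVEC 2, with an adjusted p of up to 0.0563. With only the libraries of RACVECs and MACs in the fit, Robo4 was the 1 gene called of the 3. Fold changes here are on the log2(FPKM + 1) scale, which understates changes of genes at low levels.

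A further 7 genes had libraries that did not overlap between RACVECs and MACs at an unadjusted p below 0.05 but missed the adjusted threshold, as did 10.7% of all genes. Plxnd1, the receptor of Sema3e, on chromosome 6 from 115904829 to 115945023, had 43.7, 70.03 and 83.5 in MACs and 231, 171 and 95.96 in RACVECs (log2 fold change 1.28 ± 0.50 SE, adjusted p = 0.162). Plxna2, a receptor of class 6 semaphorins, had 23.1, 28.2 and 24.6 in MACs and 41.1, 107 and 94.4 in RACVECs (adjusted p = 0.0737). Both were higher in RACVECs. The other five were lower in RACVECs: Plxna3, Plxnb1, Sema4d, Sema6c and Ntn1, with log2 fold changes of -1.88, -2.66, -2.20, -1.61 and -2.99 and adjusted p values from 0.0706 to 0.182. Ntn1, a secreted netrin that attracts or repels axons, was the most abundant of them in MACs, with 237, 48.2 and 158 against 15.9, 8.87 and 21.3.

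The second comparison made the same contrast where both arms carried myristoylated Akt. In Akt-RACVECs, 5 genes rose against Akt-MACs, the receptors Robo4, Robo3 and Plxnd1 and the ligands Sema6b and Sema3f, and 10 fell: Sema3b, Sema4a, Sema4d, Slit3 and Ntn3 among ligands and Plxna3, Plxnb1, Plxnc1, Robo2 and Unc5c among receptors. These were 12.5% and 25% of the 40 genes, where 6.15% of all genes were called higher and 13.4% lower. By the study's own criterion, the same size of change in mean FPKM with an unadjusted two-sided test of unequal variances, 5 genes were called, and 7.69% of all genes. The median log2 fold change was -1.57, against -0.09 over all genes. Robo4, Sema6b and Sema3b were called in both comparisons, in the same direction, in libraries that the comparisons do not share. Akt-RACVECs were made from RACVECs, and both comparisons take their spread from the same fit, so they are not independent evidence.

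**Figure D2:**
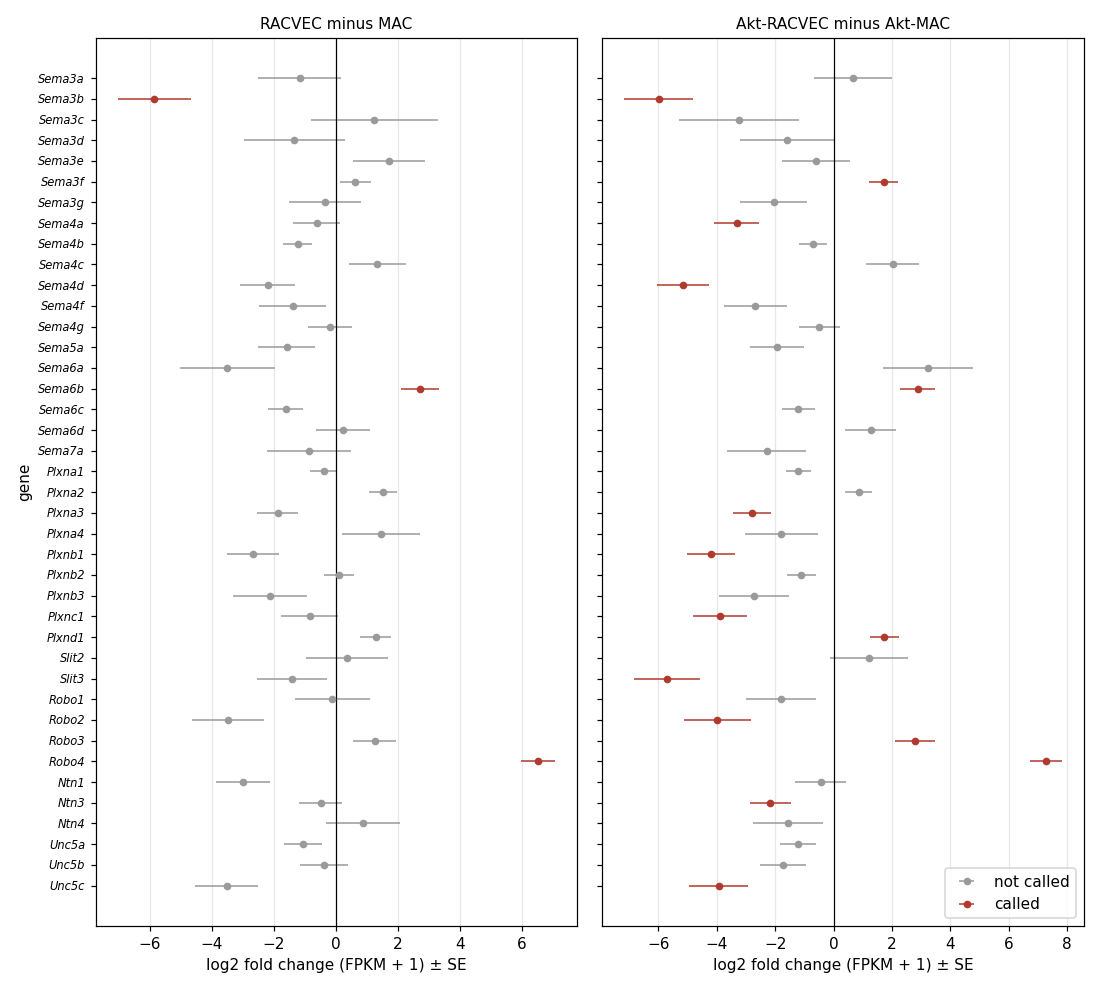
Log2 fold change on log2(FPKM + 1) ± SE (x axis) for each of the 40 tested genes (y axis), RACVEC minus MAC on the left and Akt-RACVEC minus Akt-MAC on the right, with called genes in red. Robo4 and Sema6b lie to the right and Sema3b to the left in both panels. The value of Robo4 in the left panel is set by a MAC group at 0 and is no estimate of its fold.

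Among the receptors, Robo4 had 0, 0 and 1.51 in Akt-MACs and 194, 356 and 129.8 in Akt-RACVECs, and differed by a log2 fold change of 7.26 ± 0.54 (SE, adjusted p = 8.59e-08). Robo3, a receptor of commissural axons, had 0.45, 0.66 and 1.98 in Akt-MACs and 33.8, 10.4 and 4.85 in Akt-RACVECs (log2 fold change 2.78 ± 0.69 SE, adjusted p = 0.00868). Plxnd1 had 266, 266 and 168 in Akt-MACs and 755, 886 and 667 in Akt-RACVECs (log2 fold change 1.74 ± 0.50 SE, adjusted p = 0.0176). In all 3 genes the lowest Akt-RACVEC library was above the highest Akt-MAC library.

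Among the receptors that fell, Plxnb1, the receptor of Sema4d, had 48.3, 60.03 and 20.1 in Akt-MACs and 2.75, 1.75 and 0 in Akt-RACVECs (log2 fold change -4.20, adjusted p = 0.00222). Plxna3, a plexin that pairs with neuropilins, had 25.3, 15.2 and 9.67 in Akt-MACs and 2.59, 0.87 and 1.02 in Akt-RACVECs (log2 fold change -2.80, adjusted p = 0.00595). Plxnc1, the plexin that binds Sema7a, had 1.65, 30 and 82.3 in Akt-MACs and 0.4, 0.49 and 0 in Akt-RACVECs (log2 fold change -3.89, adjusted p = 0.00632). The groups did not overlap in any of these plexins, but Akt-MAC 1 was within 1.65 of 0 in Plxnc1. Unc5c, a netrin receptor, had 18.7, 68.97 and 2.34 in Akt-MACs and 0.28, 0 and 0 in Akt-RACVECs (adjusted p = 0.0107). Robo2 had 73.5, 16.9 and 1.94 in Akt-MACs and was listed at 0 in all Akt-RACVECs (adjusted p = 0.0195). Among the genes that fell, the order of Robo2 across the Akt-MAC libraries, highest in 1 and lowest in 3, was also that of Sema3b and Plxna3. The summed neuronal markers had this order too, 387, 269 and 85.7, against 2.7 to 44.8 in Akt-RACVECs. The part of these markers was not tested.

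Among the ligands, Sema6b had 33.4, 22.7 and 8.53 in Akt-MACs and 125, 159 and 151 in Akt-RACVECs (log2 fold change 2.87 ± 0.61 SE, adjusted p = 0.00332). Sema3f, a secreted ligand that binds neuropilin Nrp2, had 114, 272 and 147 in Akt-MACs and 543, 588 and 509 in Akt-RACVECs (log2 fold change 1.71 ± 0.49 SE, adjusted p = 0.0190). Both were higher in every Akt-RACVEC library. Sema3b had 977, 189.6 and 10.97 in Akt-MACs and 1.15, 0.63 and 1.49 in Akt-RACVECs (log2 fold change -5.99 ± 1.19 SE, adjusted p = 0.00213). Slit3, a secreted ligand of Robos on chromosome 11 from 34934726 to 35522009, had 125, 61.2 and 139.6 in Akt-MACs and 4.86, 0 and 0.35 in Akt-RACVECs (log2 fold change -5.69 ± 1.12 SE, adjusted p = 0.00208). Slit2, its relative, was not called and had 141, 11.3 and 10.7 in Akt-MACs and 70.8, 126 and 27.1 in Akt-RACVECs (log2 fold change 1.22 ± 1.33 SE, adjusted p = 0.542). The order of Slit3 across the Akt-MAC libraries was also that of the summed mesenchymal markers, 4072, 2382 and 10178. These markers summed to 407, 41.7 and 6.04 in Akt-RACVECs, and their part in Slit3 was not tested.

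The immune-associated membrane ligand Sema4d had 22.4, 76.2 and 159 in Akt-MACs and 1.68, 0.69 and 0.4 in Akt-RACVECs (log2 fold change -5.16, adjusted p = 8.38e-04). Sema4a, another such ligand, had 1.69, 9.99 and 32.3 in Akt-MACs and was listed at 0 in Akt-RACVECs (adjusted p = 0.00561). Their order across the Akt-MAC libraries, lowest in 1 and highest in 3, was also that of Plxnc1 and of the summed macrophage markers, 868, 9683 and 30787; the part of macrophages in these 3 genes was not tested beyond the fit without Akt-MAC 2 and 3. Ntn3 fell from 7.48, 11.3 and 2.24 to 1.64, 0.43 and 0 (log2 fold change -2.16, adjusted p = 0.0304), and its exons overlap those of Tbc1d24 on the same strand, so reads of the pair may be shared.

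With Akt-MAC 1, the Akt-MAC library lowest in macrophage and highest in neuronal markers, as the only one, a fit that takes its spread from the other groups called 8 genes, 1 higher and 7 lower. Robo4, Sema3b, Slit3, Plxna3, Plxnb1 and Robo2 were 6 of the 15 and of these 8; the other 9 of the 15, Sema6b, Sema3f, Plxnd1, Robo3, Plxnc1, Sema4a, Sema4d, Ntn3 and Unc5c, lost the call, and Sema3g and Sema4f gained one. The share of all genes called in the fit with Akt-MAC 1 alone was not computed. When single libraries were left out, 5 of the 15 lost the call at least once: Plxnd1 without Akt-MAC 3 or Akt-RACVEC 2 (adjusted p up to 0.0652), Sema3f without Akt-MAC 1, Akt-MAC 3 or Akt-RACVEC 2 (up to 0.0742), Robo2 without Akt-MAC 1, Akt-MAC 2 or Akt-RACVEC 2 (up to 0.0979), Unc5c without Akt-MAC 2 (0.0712) and Ntn3 without Akt-MAC 1, Akt-MAC 2, Akt-RACVEC 2 or Akt-RACVEC 3 (up to 0.135).

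**Figure D3:**
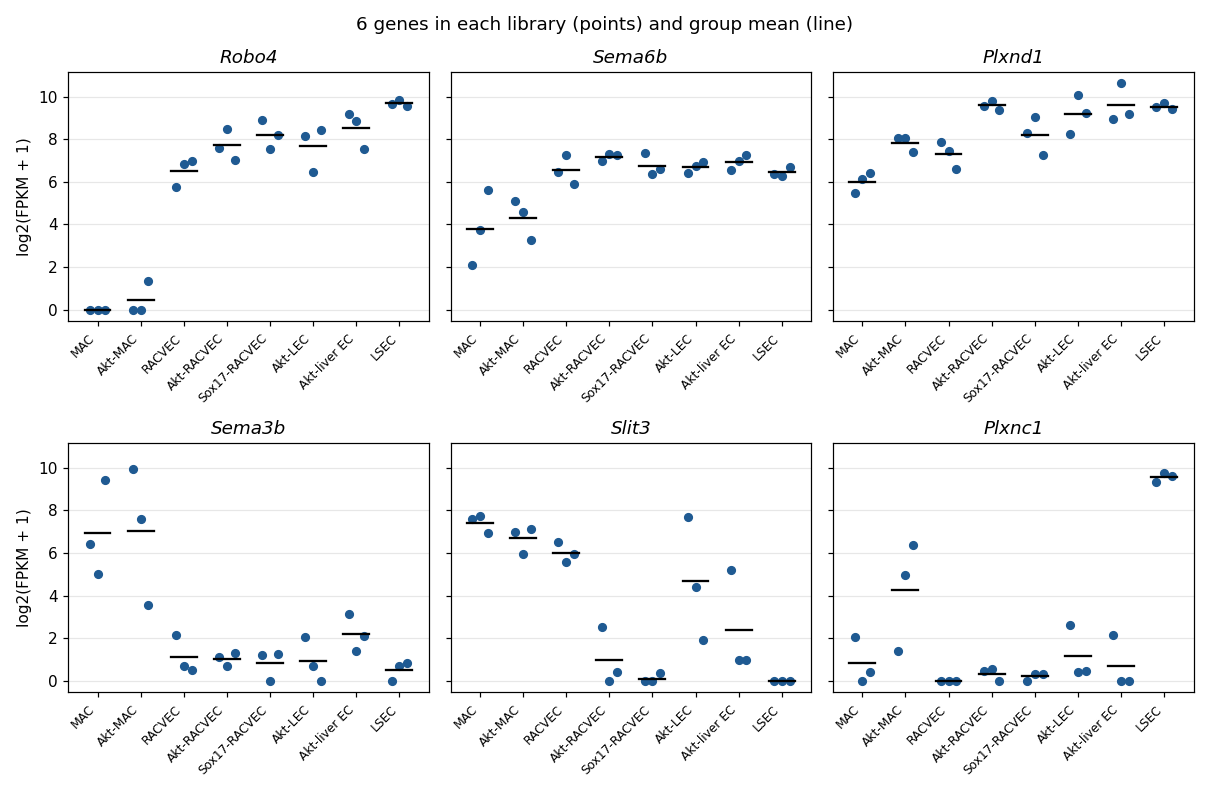
Log2(FPKM + 1) of 6 genes (y axis) in each library of the 8 groups (x axis), with points for libraries 1, 2 and 3 from left to right and a line for the group mean. Robo4 is at most 1.51 FPKM and Sema6b at most 47.5 in MACs and Akt-MACs, Plxnd1 is at most 83.5 in MACs and at least 96.0 elsewhere, Sema3b is at least 10.97 in MACs and Akt-MACs and at most 7.95 elsewhere, Slit3 is at most 4.86 in Akt-RACVECs, Sox17-RACVECs and LSECs, and Plxnc1 is at least 649 in LSECs and at most 82.3 elsewhere.

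FPKM is a level per length of transcript, so levels may also be set beside each other within a family. Of the summed plexin FPKM, Plxnb2, a receptor of class 4 semaphorins, held 50.01% in MACs (42.1% to 60.1% over the libraries), 42.9% in Akt-MACs and 48.2% in RACVECs, and it was the leading plexin there. Plxnd1 led in Akt-RACVECs with 67.9% (66.8% to 68.5%), in Akt-LECs with 58.9% and in Akt-liver ECs with 66.7%, against 8.96% in MACs and 20.2% in RACVECs. In Akt-LEC 1, however, Plxnb2 was above Plxnd1, at 360.3 against 306. Plxnc1 and Plxnd1 overlapped in LSECs, with 43.4% and 41.7%. In Sox17-RACVECs the libraries overlapped in Plxnd1, 312, 530.4 and 151, and Plxnb2, 398, 199 and 265, so that neither led. Plxna1, a partner of neuropilins, came after Plxnb2 in MACs with 139.9, 182 and 227, clear of Plxnb2 above it and Plxnd1 below it.

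Within the Slits and Robos, Slit2 and Slit3 held 39.05% and 41.7% of the summed FPKM in MACs, with overlapping levels of 463, 114 and 69.4 for Slit2 and 193, 209.9 and 120.3 for Slit3. In MAC 3, Robo2 was above both, at 124.45. In RACVECs, Slit2 held 51.7% (197, 341 and 117) and Robo4 24.98%, and their levels overlapped. Robo4 held 71.1% in Akt-RACVECs, 64.02% in Sox17-RACVECs, 61.8% in Akt-LECs, 84.2% in Akt-liver ECs and 96.6% in LSECs (96.2% to 97.2%). These shares are descriptions, and no test was run on them.

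**Figure D4:**
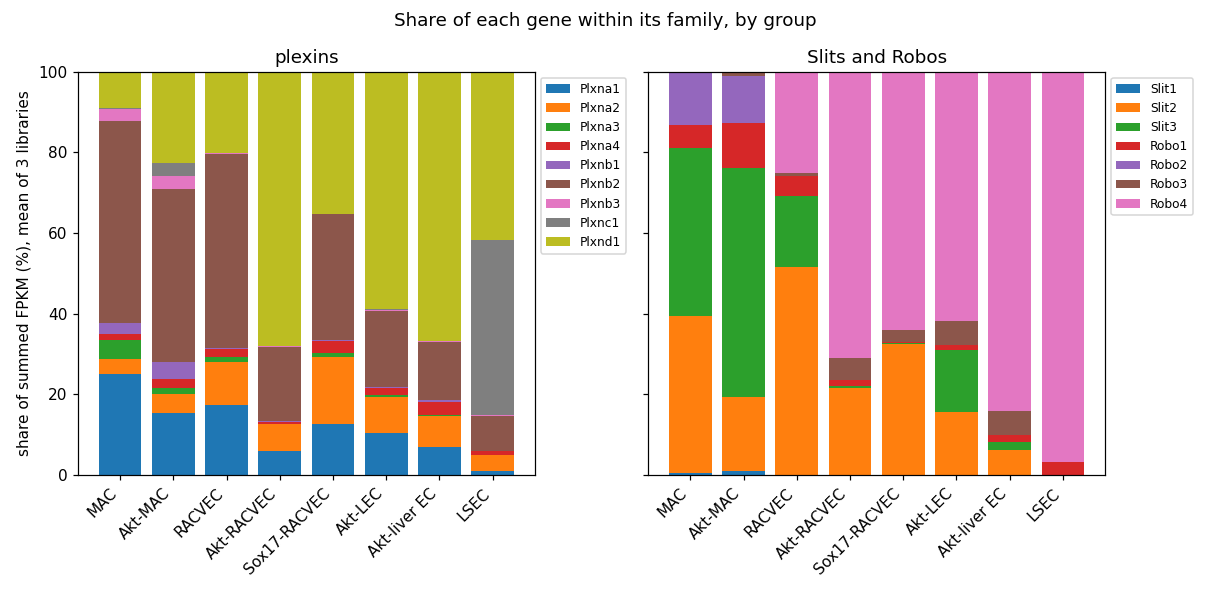
Share of each gene in the summed FPKM of the plexins (left) and of the Slits and Robos (right), in percent (y axis), as the mean of 3 libraries in each of the 8 groups (x axis). Plxnb2 holds 50.0% of the plexins in MACs and Plxnd1 67.9% in Akt-RACVECs, and Robo4 holds 0 in MACs and 96.6% in LSECs.

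Within the netrins and Unc5 receptors, Unc5b, a netrin receptor of sprouting endothelium, held the largest mean share in MACs (47.01%), Akt-MACs, RACVECs (61.3%), Akt-RACVECs, Akt-LECs and Akt-liver ECs (60.5%). Its libraries were clear of the next gene only in RACVECs. Its FPKM was 384, 68.8 and 248 in MACs and 119, 192 and 129.9 in RACVECs, which overlapped (log2 fold change -0.38, 95% interval -2.01 to 1.25). Ntn4, a netrin of basement membranes, was first in LSECs with 91.4%. In Sox17-RACVECs its level split, with 333, 4.81 and 226, the middle value being that of the library without Etv2. Among semaphorins, Sema3f had the highest mean in 6 of the 8 groups; in Akt-MACs Sema3b and in RACVECs Sema3c had a higher mean, both with wide spread. Where it led, its libraries were clear of the next semaphorin only in LSECs.

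No gene passed the adjusted test for constitutive Akt in converted cells. Limma called 0 genes higher and 0 lower in Akt-RACVECs against RACVECs, where it called 0.221% and 0.0401% of all genes; 4 genes were higher and 4 lower by the unadjusted p at that size of change, where 4.79% and 5.24% of all genes were, and the study's criterion called 4, and 3.43% of all genes. Plxnd1 was closest to the threshold, with 231, 171 and 95.96 in RACVECs and 755, 886 and 667 in Akt-RACVECs (log2 fold change 2.29 ± 0.50 SE, adjusted p = 0.0542). Slit3 had 89.4, 46.2 and 60.2 in RACVECs and 4.86, 0 and 0.35 in Akt-RACVECs (log2 fold change -5.00 ± 1.12 SE, adjusted p = 0.0556). Neither gene's libraries overlapped. Sema6a, a ligand of Plxna2 and Plxna4, had 3.24, 4.49 and 0.96 in RACVECs and 85.2, 22.2 and 214 in Akt-RACVECs (log2 fold change 4.40, adjusted p = 0.170), and Robo4 had a log2 fold change of 1.18 (95% interval 0.04 to 2.32, adjusted p = 0.292). Single omissions gave at most 3 calls, without Sox17-RACVEC 2, a library outside this contrast that enters through the shared spread. Mesenchymal markers differed between these groups in the same libraries, 2988 to 6552 against 6.04 to 407, and so did Erg, with the values given above; the part of either in these values was not tested.

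Enforced Sox17 was compared in the same way. In Sox17-RACVECs against RACVECs limma called 0 genes higher and 0 lower, where it called 0% and 0.00668% of all genes; at an unadjusted p below 0.05, 2 were higher and 3 lower, where 1.32% and 3.38% of all genes were, and the study's criterion called 1, and 0.982% of all genes. Slit3 was listed at 0, 0 and 0.28 in Sox17-RACVECs, below all RACVECs (log2 fold change -5.88 ± 1.12 SE, adjusted p = 0.191). Robo4 had 476, 184 and 291, above all RACVECs (log2 fold change 1.68 ± 0.54 SE, adjusted p = 0.510). Without Sox17-RACVEC 2, the library with no Etv2, the calls were again 0, with log2 fold changes of -5.82 for Slit3 and 2.02 for Robo4. Both comparisons share the RACVEC libraries, so the near-zero Slit3 of both is not independent evidence.

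A direct comparison of Sox17-RACVECs with Akt-RACVECs also called 0 genes in either direction with limma, as it did over all genes (0% and 0%); 3 genes were higher and 3 lower at an unadjusted p below 0.05, where 1.24% and 2.79% of all genes were, and the study's criterion called 3, and 0.621% of all genes. Plxnd1 was lower in all Sox17-RACVEC libraries, 312, 530.4 and 151 (log2 fold change -1.38 ± 0.50 SE, adjusted p = 0.539), and Plxna2 was higher in all of them, 162, 138 and 149 against 65.4, 93.03 and 64.3 (log2 fold change 1.02, adjusted p = 0.606). Akt1, with the values given above, overlapped between these groups. The calls of this comparison changed when the library without Etv2 was left out, so that libraries 1 and 3 remained. That library was singled out after seeing the data. Sema6a had 0.38, 156 and 0.25 and Sema4c, a ligand of Plxnb2, had 35.6, 440.4 and 32.5, with the middle library far above the other two. Without it, 3 genes were called: Sema6a with a log2 fold change of -5.84 (adjusted p = 0.0217), Sema4c with -3.57 (adjusted p = 0.0295) and Ntn3 with 2.56 (adjusted p = 0.0217). The share of all genes called in this refit was not computed, so the 3 calls cannot be set beside it.

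In MACs, myristoylated Akt went with 1 called gene, Sema4d, where 2.59% of all genes were called higher and 0.214% lower. Sema4d had 1.25, 1.12 and 26.5 in MACs and 22.4, 76.2 and 159 in Akt-MACs (log2 fold change 3.70 ± 0.89 SE, adjusted p = 0.0303), and the groups overlapped. The call was lost without MAC 1, MAC 2, Akt-MAC 2 or Akt-MAC 3 (adjusted p up to 0.159) and with Akt-MAC 1 alone (adjusted p = 1). Summed macrophage markers were 0.79 to 14.7 in MACs and 868, 9683 and 30787 in Akt-MACs, in the order of Sema4d, and their part was not tested. Plxnd1 was higher in all Akt-MAC libraries and missed the threshold (log2 fold change 1.83 ± 0.50 SE, adjusted p = 0.0523). Whether Akt acted differently in converted and unconverted cells was tested as an interaction, which called 0 of the 40 genes with limma, against 0.00668% of all genes higher and 0.0936% lower; 1 gene was higher and 4 lower at an unadjusted p below 0.05, where 3.09% and 7.04% of all genes were, and no other tool was run on the interaction. For Plxnd1 the difference of the Akt effects was 0.46 on the log2 scale (95% interval -1.01 to 1.92). Sema6a had the largest difference, 6.74 ± 2.17 (SE, adjusted p = 0.196).

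Akt-MACs were also set against the cultured endothelium, with all 9 libraries carrying myristoylated Akt. In Akt-MACs 12 genes were higher and 5 lower than the average of both endothelial groups, Akt-LECs and Akt-liver ECs, 30% and 12.5% of the 40 genes, where 13% and 7.12% of all genes were called. The study's criterion called 4, and 10.7% of all genes. The 5 lower genes were Robo4, Robo3, Sema6b, Plxnd1 and Plxna2. In the 6 endothelial libraries the lowest, median and highest FPKM were 88.05, 314 and 584 for Robo4, 5.42, 14.1 and 30.2 for Robo3, 84.5, 113 and 152 for Sema6b and 306, 587 and 1578 for Plxnd1. No Akt-MAC library reached the lowest endothelial one in these 4 genes (log2 fold changes -7.66, -2.82, -2.50 and -1.54, adjusted p at most 0.0135). Plxna2 overlapped, with 29.3, 98.2 and 21.9 in Akt-MACs and 46.03, 96.9 and 126 in the endothelium (log2 fold change -1.11, adjusted p = 0.0408).

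The 12 higher genes were Sema3b, Sema4a, Sema4d, Sema4f and Slit3 among ligands and Plxna3, Plxnb1, Plxnb2, Plxnb3, Plxnc1, Robo2 and Unc5c among receptors. Sema3b, Plxnb1 and Robo2 did not overlap with the endothelium, where the lowest, median and highest values were 0, 2.44 and 7.95 for Sema3b, 1.31, 6.27 and 10.9 for Plxnb1 and 0, 0.11 and 0.84 for Robo2 (log2 fold changes 5.45, 2.80 and 3.73, adjusted p = 0.00139, 0.00899 and 0.0112). Plxnb2 had 313, 466 and 614 in Akt-MACs and 68, 126 and 360.3 in the endothelium (log2 fold change 1.62, adjusted p = 0.00922). Sema4f had 73.2, 12.5 and 1.93 in Akt-MACs and a median of 0.725 in the endothelium (adjusted p = 0.0416). Plxnb3 had 60.3, 23.3 and 5.52 and a median of 0.980 (adjusted p = 0.0333). The log2 fold changes of the other six ran from 1.96 for Plxna3 to 3.44 for Unc5c, with adjusted p of at most 0.0261. Of the 12, Plxnb2, Sema4a, Sema4d and Plxnc1 followed the order of the summed macrophage markers in Akt-MACs, 868, 9683 and 30787. Those markers were at most 18.6 in 4 of the 6 endothelial libraries and 1598 and 1095 in Akt-LEC 1 and Akt-liver EC 1. Sema3b, Sema4f, Plxna3, Plxnb3 and Robo2 followed the order of the neuronal markers in Akt-MACs, which reached at most 205.3 in the endothelium. Slit3 followed that of the mesenchymal markers in Akt-MACs, 4072, 2382 and 10178, which reached at most 4170 in the endothelium, in Akt-LEC 1. The part of these markers was not tested.

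With Akt-MAC 1 alone, 4 of the 17 calls were made, Robo4, Robo2, Sema3b and Sema4f, and none was gained. Without Akt-LEC 1 and Akt-liver EC 1, the libraries with mesenchymal and macrophage markers, 18 genes were called, 14 of them among the 17. The share of all genes called was not computed for either fit. Single omissions ended 12 of the 17 calls at least once, those of Robo4, Robo3, Sema3b, Sema6b and Plxnb2 never. Leaving out Akt-MAC 1 ended those of Plxna2, Plxna3, Plxnb3, Robo2, Sema4f and Slit3. Leaving out Akt-MAC 2 ended those of Plxna3, Plxnb1, Plxnb3, Robo2, Sema4a, Sema4d, Sema4f, Slit3 and Unc5c, and leaving out Akt-MAC 3 those of Plxna2, Plxnc1, Plxnd1, Sema4a, Sema4d and Slit3. Plxna2, Plxnb3, Sema4d, Sema4f and Slit3 also lost theirs without 1 or more endothelial libraries, and the largest adjusted p was 0.290, for Sema4f.

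Converted cells were then set against lung endothelium. For RACVECs against Akt-LECs limma called 0 genes in either direction, where it called 0.0267% of all genes higher and 0.234% lower; at an unadjusted p below 0.05, 4 were higher and 7 lower, where 3.68% and 4.11% of all genes were, and the study's criterion called 1, and 2.16% of all genes. Plxnd1 had 231, 171 and 95.96 in RACVECs and 306, 1065 and 594 in Akt-LECs, without overlap (log2 fold change -1.88 ± 0.50 SE, adjusted p = 0.143). Without Akt-LEC 1 and Akt-liver EC 1 it was called lower (log2 fold change -2.34, adjusted p = 0.0398) and Plxnb2 higher (1.92, adjusted p = 0.0218). Sema7a, a GPI-anchored ligand, had 13.8, 22.6 and 0.71 in RACVECs and 202, 64.3 and 98.7 in Akt-LECs (log2 fold change -3.70, adjusted p = 0.279). Robo4 had a log2 fold change of -1.16 (95% interval -2.30 to -0.02, adjusted p = 0.430) and overlapping libraries. Sema6b had a log2 fold change of -0.16, with an interval of -1.44 to 1.12.

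For Akt-RACVECs against Akt-LECs, limma called 0 genes in either direction, where it called 0% and 0.00668% of all genes; 0 were higher and 3 lower at an unadjusted p below 0.05, where 1.66% and 2.51% of all genes were, and the study's criterion called 1, and 0.815% of all genes. The 3 were Sema3g, Sema7a and Slit3. Sema3g, a secreted semaphorin of arterial endothelium, had 0.37, 9.59 and 0 in Akt-RACVECs and 21.1, 16.1 and 15.2 in Akt-LECs, and Sema7a had 6.69, 4.32 and 33.3 against the Akt-LEC values above, without overlap in either gene (log2 fold changes -2.91 and -3.29, adjusted p = 0.448 and 0.475). Slit3 was high in Akt-LEC 1, with 206, 20.4 and 2.78 (log2 fold change -3.68, adjusted p = 0.315). Plxnd1 differed by 0.40 (95% interval -0.64 to 1.44).

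Between the cultured endothelia, Akt-LECs against Akt-liver ECs, limma called 0 genes higher and 0 lower, against 0% and 0.0134% of all genes; 2 were higher and 3 lower at an unadjusted p below 0.05, where 1.12% and 1.67% of all genes were, and the study's criterion called 1, and 0.548% of all genes. Sema3g (21.1, 16.1 and 15.2 against 6.54, 2.92 and 0) and Ntn1 (43.4, 17.4 and 32.5 against 14.2, 7.97 and 2.32) were higher in all lung libraries, Sema4d (9.35, 8.93 and 0.5 against 13.1, 37.8 and 37.7) and Unc5b (259, 193 and 45.3 against 276, 1053 and 289) lower in all. The adjusted p of each of these 4 genes was 1.

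The last comparison set liver endothelium after culture with myristoylated Akt against liver endothelium sorted directly, groups in which culture, Akt and the way of sorting cannot be told apart. In Akt-liver ECs 11 genes were higher than in LSECs, 27.5% of the 40, where 14.1% of all genes were called higher, and 2 were lower, 5% where 12.9% were. The study's criterion called 4, and 18.1% of all genes. The higher ones were the ligands Sema3a, Sema3e, Sema6c, Sema7a, Slit2 and Ntn3 and the receptors Plxna1, Plxna3, Plxnb1, Robo3 and Unc5b, and the lower ones the receptors Plxnc1 and Unc5a. The median log2 fold change was 0.56, against 0.08 over all genes. In none of these 13 genes did the groups overlap.

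**Figure D5:**
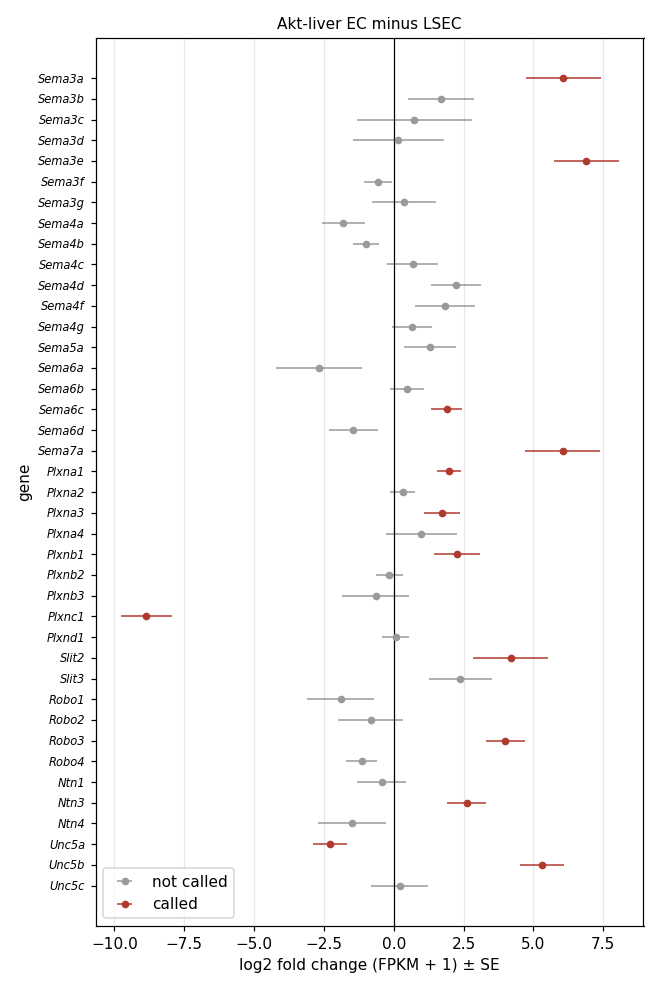
Log2 fold change on log2(FPKM + 1) ± SE (x axis) of Akt-liver ECs minus LSECs for each of the 40 tested genes (y axis), with called genes in red. Plxnc1 lies farthest to the left at -8.86, and Sema3e, Sema3a, Sema7a and Unc5b lie farthest to the right. The values of Sema3e and Robo3 are set by an LSEC group at 0 and are no estimates of their folds.

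Among the ligands, Sema3e, which binds Plxnd1, was listed at 0 in all LSECs and had 62.6, 155 and 164 in Akt-liver ECs (adjusted p = 1.87e-04), while its receptor Plxnd1 was high in both groups, with 719.5, 817 and 674 in LSECs and 493, 1578 and 581 in Akt-liver ECs (log2 fold change 0.06, 95% interval -0.98 to 1.10). Sema3a, a secreted ligand of neuropilin Nrp1, had 63.4, 262 and 222 in Akt-liver ECs and 1.42, 1 and 1.55 in LSECs (log2 fold change 6.07 ± 1.33 SE, adjusted p = 0.00176). Sema7a had 40.4, 257 and 299 in Akt-liver ECs and 2.17, 0 and 2.52 in LSECs (log2 fold change 6.05 ± 1.35 SE, adjusted p = 0.00209), and its receptor Plxnc1 moved the other way. Slit2 had 57.2, 7.04 and 22.1 in Akt-liver ECs and 0, 0 and 0.82 in LSECs (log2 fold change 4.18, adjusted p = 0.0203). The last 2 ligands were at lower levels. Sema6c had 4.9, 9.21 and 2.44 in Akt-liver ECs and 1.29, 0 and 0.76 in LSECs (adjusted p = 0.0143). Ntn3 had 2.47, 8.29 and 6.75 in Akt-liver ECs and 0, 0 and 0.1 in LSECs (adjusted p = 0.00697), and Tbc1d24, whose exons overlap those of Ntn3, had 45.5, 44.1 and 44.2 in Akt-liver ECs and 11.4, 13.53 and 14.2 in LSECs.

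Among the receptors, Plxnc1, on chromosome 10 from 94253617 to 94407212, had 649, 864 and 794 in LSECs and 3.48, 0 and 0 in Akt-liver ECs (log2 fold change -8.86 ± 0.92 SE, adjusted p = 6.11e-07). It was at most 82.3 in the other 21 libraries. The library with that value, Akt-MAC 3, had summed macrophage markers of 30787, above all LSECs with 14209.7, 12854 and 8602. Lyz2 made up 21124 of this sum, and single markers differed in direction. Ptprc, Adgre1, Csf1r and Lyz2 were higher in Akt-MAC 3 than in all LSECs. C1qa was 1165 there against 3243, 3172 and 1741 in LSECs, and C1qb 2925 against 4095, 3987 and 2473. The 2 cultured endothelial libraries with macrophage markers, Akt-LEC 1 and Akt-liver EC 1, had a Plxnc1 of 5.11 and 3.48. The part of macrophages in Plxnc1 was not tested here. Unc5a had 47.7, 50.1 and 38.5 in LSECs and 15.9, 6.85 and 5.31 in Akt-liver ECs (log2 fold change -2.29 ± 0.61 SE, adjusted p = 0.00737). An exon of Unc5a overlaps one of Hk3, a hexokinase gene, on the other strand, and the library kit did not keep strand; Hk3 had 92.4, 101 and 59.2 in LSECs, 15.6, 0 and 0 in Akt-liver ECs and 5.23, 136 and 291 in Akt-MACs, where Unc5a was 2.14, 2.78 and 8.69.

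Unc5b had 276, 1053 and 289 in Akt-liver ECs and 10.3 ± 2.01 (SD, n = 3, lowest 7.96) in LSECs (log2 fold change 5.30 ± 0.78 SE, adjusted p = 4.31e-05). Its level in LSECs was also below that of all other 21 libraries. The netrin Ntn4, with 734, 664 and 697 in LSECs and 384, 236 and 165 in Akt-liver ECs, was not called (log2 fold change -1.50, 95% interval -4.02 to 1.03, adjusted p = 0.363). Robo3 was listed at 0 in all LSECs and had 5.42, 19.2 and 30.2 in Akt-liver ECs (adjusted p = 2.42e-04), whereas the neighbouring Robo4 had 796, 901 and 762 in LSECs and 584, 467 and 182 in Akt-liver ECs (log2 fold change -1.15, 95% interval -2.29 to -0.01). Plxna1 had 128, 95.9 and 36.4 in Akt-liver ECs and 19.4, 20.5 and 16.8 in LSECs (log2 fold change 1.97 ± 0.43 SE, adjusted p = 0.00180). Plxna3 had 6.09, 4.22 and 1.7 in Akt-liver ECs (adjusted p = 0.0484) and Plxnb1 had 10.9, 10.3 and 3.42 (adjusted p = 0.0426), and both were at most 1.16 in LSECs.

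Single omissions ended 4 of the 13 calls. Plxna3 lost its call in 17 of 24 fits (adjusted p up to 0.156), Plxnb1 without Akt-liver EC 1 or 2 or any LSEC library (up to 0.119), Slit2 without Akt-liver EC 1 or 3 or LSEC 1 or 2 (up to 0.0838), and Sema6c without Akt-liver EC 2 or LSEC 2 (up to 0.0746). Without Akt-LEC 1 and Akt-liver EC 1, 13 genes were called, 10 of them the same; Plxna3, Plxnb1 and Slit2 were lost, and Robo1, Sema4a and Sema4d gained. The share of all genes called in this fit was not computed. Hepatocyte, red blood cell, lymphocyte and macrophage markers moved with this contrast, and their part in these values was not tested.

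Co-receptors and intracellular partners of these families were counted by the same calls. Of 16 co-receptors and further ligands, 13 were tested, and in RACVECs against MACs 0 were higher and 1 lower, 7.69% of the 13 where 1.35% of all genes were lower. It was Flrt1, a ligand of Unc5 receptors, which had 13.4, 1.82 and 3.16 in MACs and was listed at 0 in RACVECs (adjusted p = 0.0145). Neuropilin Nrp1 had 327, 327 and 299 in MACs and 165, 126 and 108 in RACVECs, without overlap and without a call (log2 fold change -1.27, adjusted p = 0.505). In Akt-RACVECs against Akt-MACs 0 were higher and 4 lower, Flrt1, L1cam, Ntng1 and Ntng2, 30.8% where 13.4% of all genes were lower. Akt-liver ECs differed from LSECs in 7: Flrt2, Flrt3 and Neo1 were higher and Cd72, Flrt1, Nrp1 and Ntng2 lower, 23.1% and 30.8% where 14.1% and 12.9% of all genes were. Nrp1 had 2688, 1897 and 1804 in LSECs and 264, 30.03 and 2.3 in Akt-liver ECs (log2 fold change -6.12 ± 0.98 SE, adjusted p = 1.04e-04), and Neo1, the netrin receptor neogenin, had 15.7, 12.5 and 10.3 in LSECs and 52.98, 439 and 777 in Akt-liver ECs (log2 fold change 4.27 ± 1.08 SE, adjusted p = 0.00514). In Akt-MACs against the cultured endothelium 5 were higher, Cd72, Flrt1, L1cam, Ntng1 and Ntng2, 38.5% where 13% of all genes were, and 0 lower.

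All 27 listed intracellular effectors were tested. In RACVECs against MACs 0 were higher and 1 lower, Dpysl4, 3.7% of the 27 where 1.35% of all genes were lower. In Akt-RACVECs against Akt-MACs 1 was higher, the kinase Fyn, and 4 lower, Arhgef11, Dpysl4, Dpysl5 and Farp2, 3.7% and 14.8% where 6.15% and 13.4% of all genes were. Fyn, which acts downstream of plexins, had 219, 201 and 133 in Akt-MACs and 527, 507 and 356 in Akt-RACVECs (log2 fold change 1.34 ± 0.40 SE, adjusted p = 0.0220). Between Akt-liver ECs and LSECs, the contrast with the largest share of calls over all genes, 9 were higher (Crmp1, Dpysl4, Enah, Farp1, Met, Mical2, Mical3, Rnd1 and Srgap3) and 2 lower (Fyn and Nck1), 33.3% and 7.41% where 14.1% and 12.9% of all genes were. Enah, an actin regulator downstream of Robos, had 55.9, 29.6 and 93.8 in Akt-liver ECs and 1.08, 0 and 0 in LSECs (log2 fold change 5.43, adjusted p = 8.96e-06), and Met, a partner of plexin B receptors, had 66.02, 48.96 and 50.7 in Akt-liver ECs and 0.51, 0.93 and 2.65 in LSECs (log2 fold change 4.66, adjusted p = 2.66e-05). In Akt-MACs against the cultured endothelium 2 were higher, Arhgap39 and Dpysl5, 7.41% where 13% of all genes were. In Akt-MACs against MACs the co-receptor list gave 1 higher, Ntng1, 7.69% where 2.59% of all genes were. Neither list had a call in the other contrasts, where limma called at most 0.234% of all genes in either direction.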

How the data were processed

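RNA was measured in 24 mouse libraries, 3 in each of 8 groups, made with an unstranded TruSeq kit and read as pairs of 51 bases. The authors aligned the reads to mm9 with TopHat and deposited FPKM values per transcript from Cufflinks, with upper-quartile normalization and correction of sequence bias (versions not given in the sources used here). Counts were not used here, so the depth is unknown, and the FPKM of a library summed to between 1689486 and 2317294.

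FPKM of the transcripts of a gene were summed, which gave 22282 genes. The 14964 genes with a mean of at least 1 entered 1 limma fit (version 3.58.1, R 4.3.3) on log2(FPKM + 1) with the 8 groups, trended variances and Benjamini-Hochberg adjustment over all of them, two-sided. Calls required an adjusted p below 0.05 together with an absolute log2 fold change above 1. The cultured endothelium was the mean of the Akt-LEC and Akt-liver EC groups. The study calls the libraries individual isolates, and no 2 libraries held identical values. All 43 genes were members by symbol, and the genes named with values were the called ones, those whose groups did not overlap at an unadjusted p below 0.05, and the 5 most abundant of each family. The members, lists and alternatives were chosen with earlier results of these data known. Positions are those of mm9 and sequences those of RefSeq on GRCm38.p6. Transcripts were given gene symbols by their RefSeq identifiers, which named 26934 of 27583. Each of the rest was kept as a gene of its own. Of the 43 genes, 38 had 1 transcript.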

Additional observations from a re-analysis of the deposited data

How the results depend on the processing

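None of the 49 called values of single genes turned its direction under a setting run for it. Scaling each library to the median kept all 49 calls, only the groups compared in the fit ended 21 and kept 28, a replicate block with those groups ended 32 and kept 17, and Akt-MAC 1 as the only Akt-MAC library ended 23 and kept 10. Leaving out 1 library in turn ended the call of a gene in 90 refits and kept it in 1086. Most of these refits left out a library outside the groups compared, which enters only through the shared spread. The depth behind the values is unknown, and 3 libraries a group limit what could be called. Without any 1 library, the number of genes called ranged from 1 to 6 for RACVEC against MAC, 12 to 17 for Akt-RACVEC against Akt-MAC, 0 to 3 for Akt-RACVEC against RACVEC, 0 to 1 for Sox17-RACVEC against RACVEC, 0 to 3 for Sox17-RACVEC against Akt-RACVEC, 0 to 4 for Akt-MAC against MAC, 8 to 18 for Akt-MAC against cultured endothelium, 0 to 0 for RACVEC against Akt-LEC, 0 to 1 for Akt-RACVEC against Akt-LEC, 0 to 0 for Akt-LEC against Akt-liver EC, 9 to 15 for Akt-liver EC against LSEC, 0 to 1 for the interaction and 27 to 32 for the F test.

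A pseudocount of 10 gave 5 genes for RACVEC against MAC (3 before), 1 for Akt-RACVEC against RACVEC (0 before) and 2 for Akt-MAC against MAC (1 before), and a pseudocount of 0.1 gave 0 for the last. A minimum mean FPKM of 10 gave 2 for Akt-RACVEC against RACVEC, 11 for Akt-MAC against cultured endothelium (17 before) and 8 for Akt-liver EC against LSEC (13 before). With only the groups compared in the fit, the counts were 1 for RACVEC against MAC, 9 for Akt-RACVEC against Akt-MAC (15 before), 1 for Sox17-RACVEC against RACVEC (0 before), 0 for Akt-MAC against MAC and 6 for Akt-MAC against cultured endothelium. The study's criterion gave 5 for Akt-RACVEC against Akt-MAC, 4 for Akt-RACVEC against RACVEC, 1 for Sox17-RACVEC against RACVEC, 3 for Sox17-RACVEC against Akt-RACVEC, 4 for Akt-MAC against cultured endothelium, 1 each for RACVEC against Akt-LEC, Akt-RACVEC against Akt-LEC and Akt-LEC against Akt-liver EC, and 4 for Akt-liver EC against LSEC. Chosen after seeing the data, Akt-MAC 1 as the only Akt-MAC library gave 8, 0 and 4 genes for the contrasts of Akt-MAC with Akt-RACVEC, MAC and cultured endothelium, and leaving out Akt-LEC 1 and Akt-liver EC 1 gave 2 for RACVEC against Akt-LEC. For the settings in this paragraph other than the study's criterion, the share of all genes called was not computed. Why the counts moved was not tested.

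The replicate numbers were not taken to pair the libraries, since in 0 of 28 pairs of groups were all 3 correlations of deviations over 0.1, although Akt-LEC and Akt-liver EC had 0.571 and 0.366 for numbers 1 and 2. A replicate block with only the groups compared gave 0 genes for RACVEC against MAC, Akt-RACVEC against Akt-MAC and Akt-MAC against MAC, and 8 for Akt-MAC against cultured endothelium. Of all 14964 genes tested, it called 0 in each of the former and 1866 in the last. Over all genes the smallest adjusted p with the block was 0.262 for RACVEC against MAC and 0.0810 for Akt-RACVEC against Akt-MAC. A block for the 2 pairs of MAC and RACVEC libraries whose file headers carry like names, chosen after seeing the data, gave 4 genes for RACVEC against MAC. It called 472 of all 14964 genes tested.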
